A study of Nicotiana with 12 samples.

Results

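The ethylene pathway genes ACO4, ACO6, ETR5, EIL3 and PTI4, named as in tomato, were followed from synthesis to response in leaves of Nicotiana, the tobacco genus. The members were all probe sets that the array's annotation assigns to these 5 genes, 7 of the 10101 probe sets tested, since ACO6 has 3 probe sets and each other gene has 1. Leaves came from wild-type (WT) plants and from plants carrying PSARK::IPT, in which the promoter of a senescence-associated receptor kinase gene (SARK) drives isopentenyltransferase (IPT), an enzyme that makes cytokinins, so that IPT depends on where and when that promoter is active. The labels give no species, give the age as about 10 weeks, and do not say how many transgenic lines were used or whether a sample pooled plants. Pots of each genotype received 1000 mL of water per day (watered) or 300 mL per day (stressed) for 45 days. Each of the 4 groups held 3 biological replicates, so that 12 arrays were analysed. The probes were designed for tomato, so each difference is taken within 1 probe set across groups. Where levels of different probe sets are set side by side, this is only a rough guide to signal. All levels are log2 values on the authors' RMA scale, and a difference of 1 is a 2-fold change.

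Plants make ethylene from S-adenosylmethionine, which ACC synthases (ACS) turn into ACC and ACC oxidases (ACO) into the gas. Ethylene binds receptors such as ETR5, which without ethylene keep the kinase CTR1 active and the pathway shut. Once released, the signal passes through EIN2 to transcription factors of the EIN3 and EIL family, which switch on ethylene response factors (ERF) such as PTI4. In leaves the hormone is best known for its part in senescence, abscission, defence and responses to water deficit.

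The genes were chosen by earlier results of these same arrays. ETR5 and EIL3 were chosen by their higher values in stressed than in watered WT leaves, and ACO4 and ACO6 by their higher values in watered PSARK::IPT than in watered WT leaves. The comparison that chose PTI4 was not recorded. Differences that share arrays with the choice are therefore given as descriptions with their standard error (SE) and no test, and so is every difference of PTI4. Tests are given for ACO4 and ACO6 between the stressed genotypes, for ETR5 and EIL3 between stressed and watered PSARK::IPT leaves, and for the other ethylene genes. They come from 1 limma fit to all 10101 probe sets on the 12 arrays. The spread used to test ACO4, ACO6, ETR5 and EIL3 thus also draws on the arrays that chose them. To pass means an adjusted p (Benjamini-Hochberg) under 0.05. Where the text says that a gene rose, fell, was higher or was lower after a test, it passed. The p-values rest on the spread between the 3 samples within a group, taken as 1 value per probe set over all 4 groups and drawn toward that of other probe sets.

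Array medians lay between 3.38 and 3.45, and pairs of replicate arrays had a correlation of 0.982 to 0.992. The arrays differed in the signal of poly-A controls, bacterial transcripts added before labelling. Their 3' minus 5' signal on the log2 scale was lowest in watered WT leaves, at 2.22 ± 0.08 (SD, n = 3), and highest in stressed WT leaves, at 4.50 ± 0.84. Watered PSARK::IPT leaves had 2.85 ± 0.43 and stressed PSARK::IPT leaves 3.68 ± 0.11. Stressed WT replicate 2 stood apart with 5.45, against 4.19 and 3.87 in its group, so results that rest on it are also given without it. The mean log2 level of the poly-A controls was 9.8 to 9.85 on the watered WT arrays and 7.28 to 8.32 on all others. This level set watered WT apart from the other groups, and its part in comparisons with watered WT was not tested. Of 12 probe sets for leaf photosynthesis genes, 10 lay above the median on every array, while 0 of 3 fruit and 0 of 1 pollen and anther probe sets did. In whole leaves, fewer cells of a type and less RNA per cell cannot be told apart. No scanner file was used here, and a position against the array median stands in for signal over background. ACO4 and the brightest ACO6 probe set (its ID ends in 3.S1_at) lay above the median on all 12 arrays. PTI4 lay above it on 10, ETR5 and the middle ACO6 probe set (2.S1_at) on 9, EIL3 on 2 and the dimmest ACO6 probe set (1.A1_at) on 0. The pollen and anther probe set read 2.91 to 3.32 across the arrays. EIL3 (2.56 to 3.49), ETR5 in watered WT (2.83 to 3.41) and PTI4 in stressed WT (2.96 to 3.45) overlapped that range. Their WT stress differences thus involve values near the low end of the scale.

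**Figure D1:**
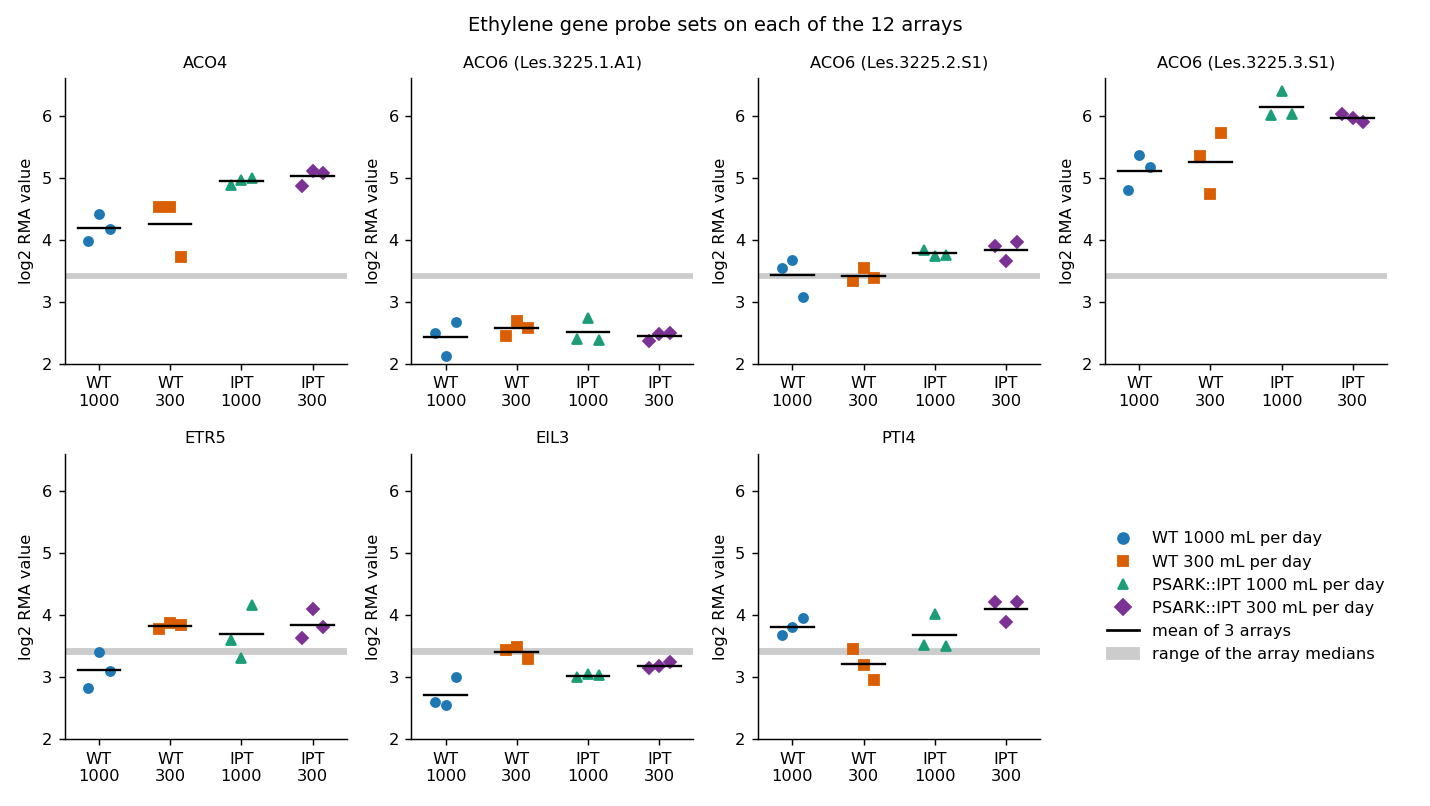
Log2 RMA value (vertical axis) of the 7 probe sets on each of the 12 arrays, by group (WT or PSARK::IPT, written IPT, with 1000 or 300 mL of water per day). Points are arrays, black lines are means of 3 arrays and the grey band is the range of the array medians, 3.38 to 3.45. ACO4 is higher on the PSARK::IPT than on the WT arrays, of which the watered ones chose the gene. EIL3 is lowest in watered WT, and PTI4 is lowest in stressed WT and highest in stressed PSARK::IPT leaves.

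The ACC oxidase ACO4 was higher in PSARK::IPT than in WT leaves under stress, and its values overlapped between the water supplies within each genotype. It encodes an ACC oxidase, the enzyme of the last step of ethylene synthesis. Its level was 3.98, 4.41 and 4.18 on the watered WT arrays and 4.53, 4.53 and 3.72 on the stressed WT arrays. It was 4.88, 4.96 and 5.0 in watered and 4.86, 5.11 and 5.08 in stressed PSARK::IPT leaves. All 6 PSARK::IPT arrays lay above all 6 WT arrays, but the watered arrays among them chose the gene. Within 1 water supply, the genotypes did not overlap for 31.5% of all probe sets when watered and 30% under stress. Under stress ACO4 was 1.69-fold higher in PSARK::IPT than in WT leaves (log2 0.76, SE 0.18, 3 arrays against 3, limma adjusted p = 0.00823). The call was also made without stressed WT replicate 2 (0.89, SE 0.19, adjusted p = 0.0054). In watered leaves, the comparison that chose it, the log2 difference was 0.76 (SE 0.18). With the poly-A value of each array in the fit, the genotype difference was 0.58 (SE 0.20) when watered and 0.99 (SE 0.21) under stress. The stress differences were 0.07 (SE 0.18) in WT, with a 95% interval from -0.32 to 0.46, and 0.07 (SE 0.18) in PSARK::IPT. With the poly-A value of each array as a covariate both turned negative, to -0.57 (SE 0.39) and -0.16 (SE 0.21). Stressed WT replicate 3 had the lowest ACO4 value, and without it the WT stress difference was 0.34 (SE 0.14). It was -0.06 without stressed WT replicate 1 or 2 and -0.03 without watered WT replicate 1.

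ACO6, a second ACC oxidase gene, has 3 probe sets. The brightest and the middle one had differences of the same sign between the genotypes, and under stress only the brightest passed. The brightest read 4.80, 5.36 and 5.17 in watered WT and 5.35, 4.73 and 5.72 in stressed WT. It read 6.01, 6.39 and 6.02 in watered and 6.02, 5.96 and 5.89 in stressed PSARK::IPT leaves. As with ACO4, no WT array reached the lowest PSARK::IPT array, and the water supplies overlapped within each genotype. Under stress this probe set was 1.62-fold higher in PSARK::IPT leaves (log2 0.69, SE 0.20, limma adjusted p = 0.027). Stressed WT replicate 2 had the lowest of the 12 values, and without it the difference was 0.43 (SE 0.18, adjusted p = 0.131), no longer passing. Leaving out any 1 of the stressed PSARK::IPT replicates also ended the call (adjusted p = 0.0832, 0.0697 and 0.0536). With the poly-A value of each array in the fit it was 0.25 (SE 0.18, adjusted p = 0.453). In watered leaves, the comparison that chose the gene, it was 1.03 (SE 0.20), and 1.37 (SE 0.16) with the poly-A value. The WT stress difference was 0.16 (SE 0.20), 0.42 (SE 0.18) without stressed WT replicate 2 and 1.39 (SE 0.33) with the poly-A value, and the part of labelling in these values was not tested.

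The middle ACO6 probe set had a level of 3.54, 3.68 and 3.07 in watered WT and 3.34, 3.54 and 3.38 in stressed WT. In PSARK::IPT leaves it had 3.83, 3.74 and 3.76 when watered and 3.89, 3.65 and 3.97 under stress. Its arrays did not overlap between the genotypes at either water supply. The log2 difference under stress was 0.41 (SE 0.15, 95% interval 0.10 to 0.73), which did not pass (limma adjusted p = 0.0673). In watered leaves it was 0.35 (SE 0.15). The dimmest probe set lay between 2.12 and 2.73 on all arrays, and its difference under stress was -0.12 (SE 0.15, 95% interval -0.43 to 0.19, limma adjusted p = 0.664). Across the 12 arrays the brightest and middle probe sets correlated with r = 0.58, and the dimmest correlated with them at -0.08 and -0.38, given as a description of arrays that share groups. No sequence of the probes was used here to tell which part of the transcript each one reads.

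ETR5, an ethylene receptor, had its lowest values in watered WT leaves. The arrays read 2.83, 3.41 and 3.11 in watered WT and 3.78, 3.87 and 3.85 in stressed WT. They read 3.61, 3.31 and 4.17 in watered and 3.64, 4.11 and 3.81 in stressed PSARK::IPT leaves. The WT groups did not overlap, while the watered PSARK::IPT arrays overlapped each of the other groups. In order of means the groups were watered WT (3.12), watered PSARK::IPT (3.70), stressed WT (3.83) and stressed PSARK::IPT (3.85), and each neighbouring pair in that order overlapped. The WT stress difference that chose the gene was 0.72 (SE 0.19, 1.64-fold), and 0.70 (SE 0.22) without stressed WT replicate 2. In PSARK::IPT leaves the stress difference of ETR5 was 0.16 (SE 0.19, 95% interval -0.25 to 0.57), which did not pass (limma adjusted p = 0.788). The difference between the watered genotypes was 0.58 (SE 0.19) and between the stressed ones 0.02 (SE 0.19). The stress effect in PSARK::IPT minus that in WT was -0.56 (SE 0.27).

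EIL3 belongs to the EIN3-like transcription factors, which carry the signal to target genes. It was 2.61, 2.56 and 3.00 in watered WT and 3.44, 3.49 and 3.29 in stressed WT leaves. It was 3.01, 3.06 and 3.04 in watered and 3.15, 3.18 and 3.25 in stressed PSARK::IPT leaves. The 4 groups formed an order without overlap, from watered WT over watered and stressed PSARK::IPT to stressed WT. The WT stress difference that chose it was 0.68 (SE 0.13, 1.61-fold), and 0.64 (SE 0.14) without stressed WT replicate 2. In PSARK::IPT leaves the stress difference of 0.16 (SE 0.13, 95% interval -0.11 to 0.43) did not pass (limma adjusted p = 0.627), although the arrays did not overlap. The stressed genotypes differed by -0.21 (SE 0.13), the watered ones by 0.31 (SE 0.13), and the stress effects by -0.52 (SE 0.18). EIL3 lay below the array median on all arrays but 2 of stressed WT.

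The group means of EIL3 had the same order as those of the poly-A 3' minus 5' difference, and watered WT was lowest in both. With that difference as a covariate the WT stress difference was 0.47 (SE 0.28) for EIL3 and 0.28 (SE 0.44) for ETR5, with larger standard errors, and the watered and stressed WT arrays do not overlap in the covariate. Its part in these values cannot be told apart from that of the water supply in WT.

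PTI4, an ERF that in tomato was found by its binding to the Pto resistance kinase, had stress differences of opposite sign in the 2 genotypes. Its level was 3.69, 3.82 and 3.95 in watered WT and 3.45, 3.20 and 2.96 in stressed WT. It was 3.53, 4.03 and 3.51 in watered and 4.21, 3.90 and 4.22 in stressed PSARK::IPT leaves. Every stressed WT array lay below every other array, and the watered groups overlapped. From highest to lowest the means were stressed PSARK::IPT (4.11), watered WT (3.82), watered PSARK::IPT (3.69) and stressed WT (3.21). Stressed PSARK::IPT overlapped watered WT, watered WT overlapped watered PSARK::IPT, and only stressed WT stood clear of its neighbour. The stress difference was -0.62 (SE 0.16) in WT and 0.42 (SE 0.16) in PSARK::IPT, and their difference was 1.04 (SE 0.23). Between the genotypes PSARK::IPT minus WT was -0.13 (SE 0.16) when watered and 0.90 (SE 0.16, 1.87-fold) under stress. Without stressed WT replicate 2 the difference of the stress effects was 1.04 (SE 0.25), and with the poly-A covariate 0.96 (SE 0.32). The mean level of the 12 leaf photosynthesis probe sets was also lowest in stressed WT leaves, at 8.29 against 8.95 in watered WT, 9.27 in watered and 9.24 in stressed PSARK::IPT leaves, and its part in the PTI4 values was not tested. The part of the poly-A difference was not tested.

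**Figure D2:**
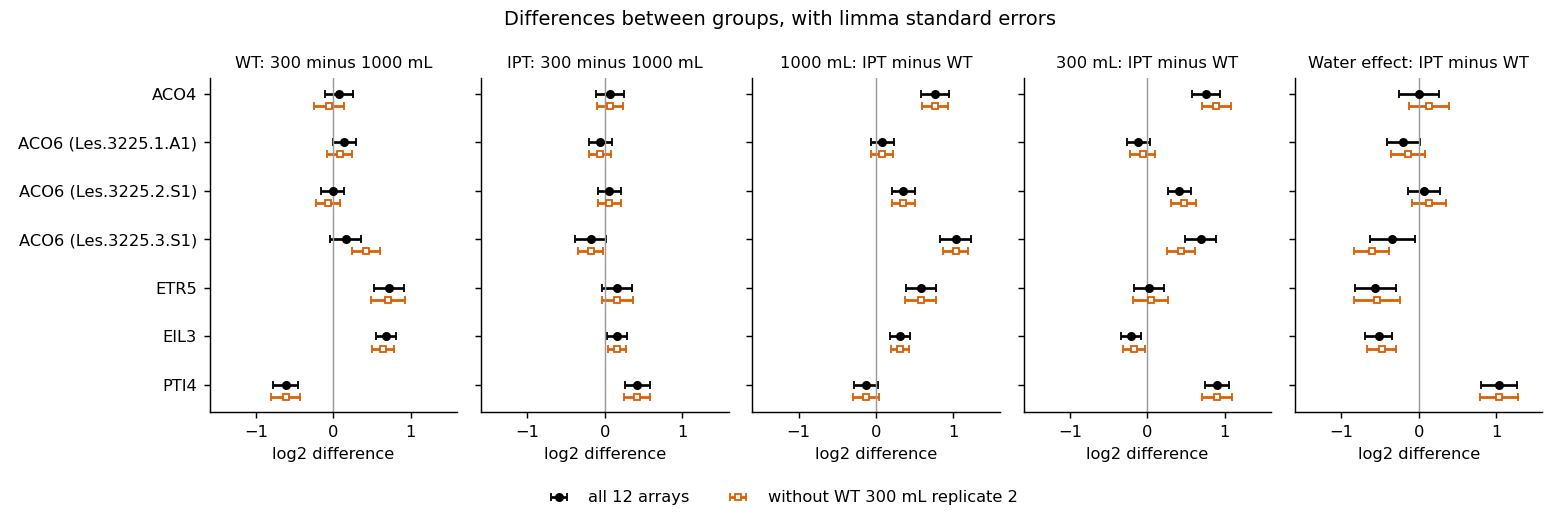
Log2 difference between groups (horizontal axis) with limma standard errors for the 7 probe sets in the 5 comparisons, from all 12 arrays (black) and without stressed WT replicate 2 (orange). ACO4 stands at 0.76 in both genotype comparisons, ETR5 and EIL3 stand at 0.72 and 0.68 in WT stress, PTI4 stands at 1.04 in the difference of the stress effects, and the bright ACO6 probe set moves from 0.69 to 0.43 under stress.

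**Figure D3:**
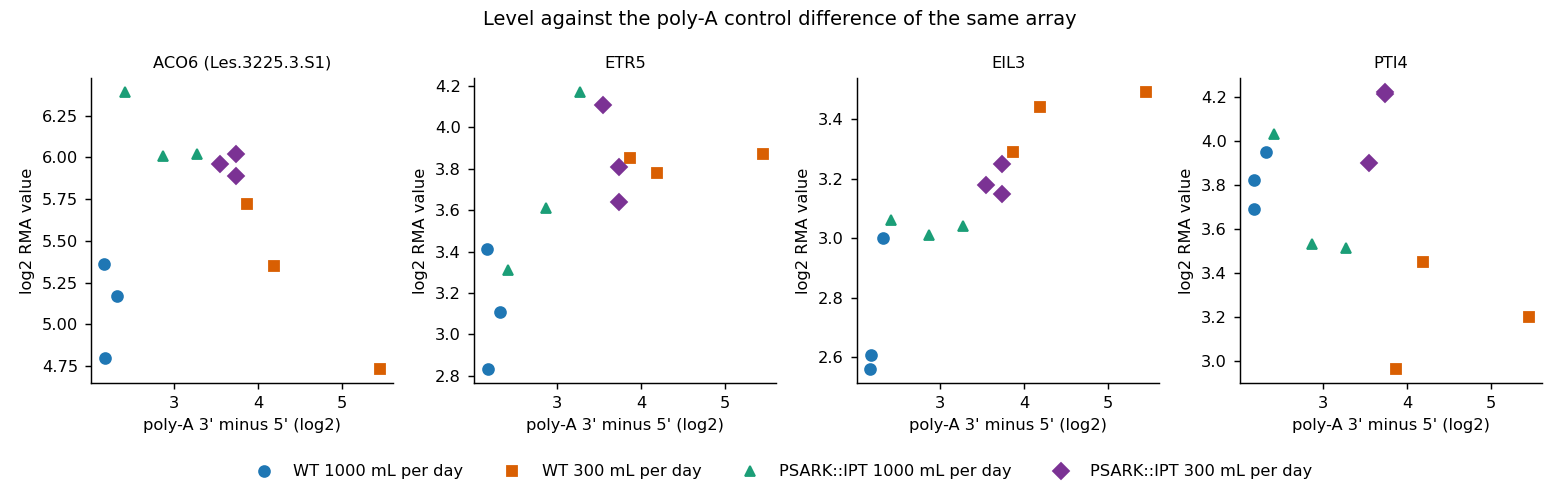
Log2 RMA value (vertical axis) against the poly-A 3' minus 5' difference of the same array (horizontal axis, log2) for the bright ACO6 probe set, ETR5, EIL3 and PTI4, with 1 point per array. EIL3 is low on the watered WT arrays (2.17 to 2.32 on the horizontal axis) and high on the stressed WT arrays (3.87 to 5.45), and the bright ACO6 probe set is lowest, at 4.73, on the array at 5.45.

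In WT stress 3 of the 7 probe sets passed, the receptor and EIL3 higher and PTI4 lower, where 11.3% of all probe sets passed, 5.63% higher and 5.67% lower. EIL3 met the threshold under 17 of 18 alternatives, and ETR5 and PTI4 each under 14 of 19. ETR5 and PTI4 lost the call when stressed WT replicate 2 was left out, and EIL3 kept it. ETR5, EIL3 and PTI4 all lost it with the poly-A covariate. In PSARK::IPT stress limma passed 0 of 7, with PTI4 the 1 at an unadjusted p under 0.05, where 1.36% of all passed. Between watered genotypes 2 passed, ACO4 and the bright ACO6 probe set, both higher in PSARK::IPT. Over all probe sets 13.8% passed there, 7.7% higher and 6.12% lower. ACO4 did not pass there with the poly-A covariate or without watered WT replicate 1. Between stressed genotypes 3 passed, ACO4, the bright ACO6 probe set and PTI4, all higher in PSARK::IPT. Over all probe sets 16.7% passed there, 8.24% higher and 8.42% lower. Centring the arrays on their medians gave 606 higher and 743 lower probe sets between watered genotypes, against 778 and 618 as deposited, and 454 higher and 667 lower in WT stress, against 569 and 573. In the difference of the stress effects the threshold was met by 1 of the 7, PTI4, and by 1.9% of all probe sets, and as PTI4 may have been chosen by these values its count is no test result. Arrays of the groups did not overlap for 3 of the 7 probe sets in WT stress, 1 in PSARK::IPT stress, 4 between watered and 5 between stressed genotypes. The shares over all probe sets were 27.7%, 22.6%, 31.5% and 30%. The choice of the genes used most of these comparisons, so the counts are descriptions and nothing is read from them.

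Among themselves, over the 12 arrays and with the brightest ACO6 probe set, ACO4 and ACO6 correlated with r = 0.64 and ETR5 and EIL3 with r = 0.64. PTI4 correlated with ETR5 at -0.28 and with EIL3 at -0.30. These correlations describe arrays that fall into 4 groups. Among 701 other named probe sets (699 for ACO6), the 3 whose 12 values were most like ACO4 were HPL, a hydroperoxide lyase (r = 0.91), rem-2 (0.91) and GS2, the plastid glutamine synthetase (0.90). For ACO6 they were VDE, violaxanthin de-epoxidase (0.89), GSA-AT, the glutamate-1-semialdehyde aminotransferase of chlorophyll synthesis (0.88), and mMDH1, a mitochondrial malate dehydrogenase (0.88). ETR5 was most like the 14-3-3 protein gene tft10 (0.79), the response factor ERF4 (0.79) and vsf-1 (0.78). EIL3 was most like PYRB (0.88), the expansin EXP12 (0.87) and gdh1, a glutamate dehydrogenase (0.87). PTI4 was most like the plastid desaturase Fad7 (0.85), the metal transporter NRAMP3 (0.84) and PRK3 (0.82). VDE, for example, stood at 6.23 and 5.77 in watered and stressed WT and at 9.05 and 8.76 in watered and stressed PSARK::IPT leaves. Fad7 stood at 6.61 and 5.24 in WT and at 7.07 and 7.50 in PSARK::IPT, lowest in stressed WT and highest in stressed PSARK::IPT leaves as PTI4 was. Each likeness was r = 0.78 or more without stressed WT replicate 2.

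The other ethylene genes were taken from a list of symbols and comprised 34 probe sets of 33 genes. Of the probe sets, 11 belong to synthesis, 4 to receptors, 9 to signalling and 10 to response factors. One of the last, PTI1, is a kinase that the symbol pattern caught. In WT stress 3 rose and 1 fell, and 30 did not pass (median log2 difference 0.08, against 0.04 over all probe sets). Over all probe sets 11.3% passed, 5.63% higher and 5.67% lower. SAM1, an S-adenosylmethionine synthetase and thus a source of the pathway's substrate, rose from 9.67 ± 0.09 (SD, n = 3) to 10.20 ± 0.41 (log2 0.53, SE 0.16, limma adjusted p = 0.04). The response factors JERF1 (0.74, SE 0.16, adjusted p = 0.00637) and ERF4 (0.64, SE 0.19, adjusted p = 0.0417) rose, and JERF3 (-0.47, SE 0.13, adjusted p = 0.0232) fell. None of the 4 other receptors passed, and 0 had an unadjusted p under 0.05. Their group means were 2.14 to 3.33, below the array medians of 3.38 to 3.45. A difference in these receptors could thus be missed near the low end of the scale. None of the 9 other signalling genes passed, with 4 at an unadjusted p under 0.05, among them EIL1 (0.71, SE 0.24, adjusted p = 0.0649) and the CTR1-like kinase CTR3 (0.52, SE 0.17, adjusted p = 0.0625). Of the 12 fits that each left out 1 array, JERF1 passed in 12, JERF3 in 8, ERF4 in 5 and SAM1 in 1, the fit without stressed WT replicate 3. JERF3 did not pass without watered WT replicate 2 or 3 or stressed WT replicate 2 or 3, and ERF4 passed only where a PSARK::IPT array other than watered replicate 1 was left out. SAM1 also did not pass after median-centring or with only the WT arrays. EIL1 passed in 3 of these fits, 1 of them without stressed WT replicate 2, and CTR3 in 1. None of the 34 passed once the poly-A value was in the fit, and of all 10101 probe sets 33 then passed, against 1142 without it.

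In PSARK::IPT leaves 0 of the 34 passed with stress in limma, where 1.36% of all probe sets passed. Of the 34, 4 had an unadjusted p under 0.05 (median difference 0.05, against 0.00 over all probe sets). CTR3 (0.56, SE 0.17, adjusted p = 0.137) and the ACC synthase ACS8 (0.42, SE 0.13, adjusted p = 0.144) had the smallest p, and CTR3 passed when stressed WT replicate 2 was left out. The stress effects of the 2 genotypes differed past the threshold for 0 of 34 and for 1.9% of all probe sets. Of the 34, 3 had an unadjusted p under 0.05. JERF3 (0.57, SE 0.18, adjusted p = 0.126) had the smallest p of these. JERF1 passed without stressed WT replicate 1 and SAM1 without stressed WT replicate 3.

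Between the watered genotypes 1 of the 34 was higher in PSARK::IPT and 2 were lower (median -0.03, against 0.02). Over all probe sets 13.8% passed, 7.7% higher and 6.12% lower. SAM1 was lower (8.83 ± 0.05 against 9.67 ± 0.09, log2 -0.84, SE 0.16, limma adjusted p = 0.00163). ACO4 and the bright ACO6 probe set, further along the same route, stood higher in this comparison, which chose their genes. The other listed ACC oxidase, ACO5, did not pass in watered leaves (0.10, SE 0.15, limma adjusted p = 0.749) or under stress (0.04, SE 0.15, adjusted p = 0.911). JERF1 was lower (-0.80, SE 0.16, adjusted p = 0.00242) and ERF4 higher (0.60, SE 0.19, adjusted p = 0.0462). Under stress 1 was higher and 2 were lower (median -0.09, against -0.01), where 16.7% of all probe sets passed, 8.24% higher and 8.42% lower. SAM1 was 2.39-fold lower (8.95 ± 0.06 against 10.20 ± 0.41, log2 -1.25, SE 0.16, limma adjusted p = 2.76e-05). JERF1 was also lower (log2 -1.30, SE 0.16, adjusted p = 1.9e-05), and JERF3 was higher (0.39, SE 0.13, adjusted p = 0.0423). SAM1 and JERF1 passed in both genotype comparisons whichever single array was left out and with the poly-A covariate. ERF4 in watered leaves and JERF3 in stressed leaves each passed in 3 of 12 such fits, and neither did without stressed WT replicate 2 or with the covariate. In the same comparison PTI4 had the sign of JERF3 and the opposite sign to JERF1. None of the 4 other receptors and none of the 9 other signalling genes passed between the genotypes at either water supply, with 1 signalling gene, CTR1 under stress (-0.38, SE 0.14), at an unadjusted p under 0.05.

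**Figure D4:**
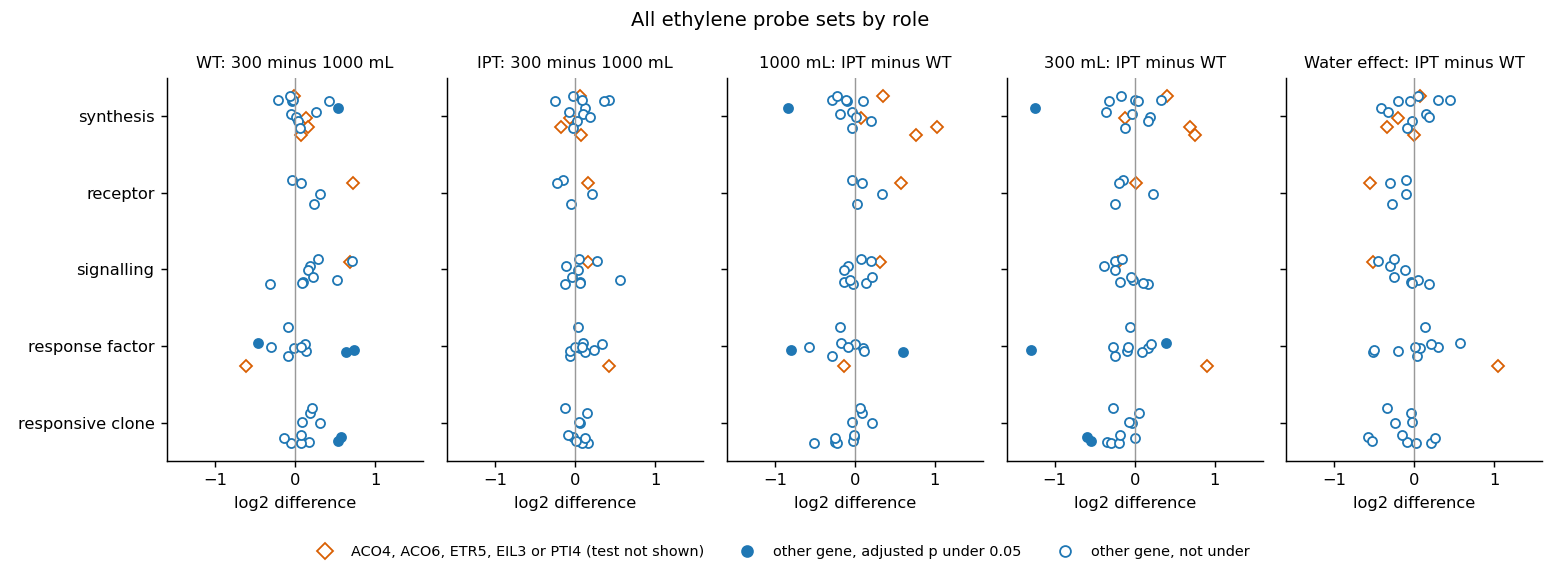
Log2 difference (horizontal axis) of each ethylene probe set in the 5 comparisons, by role in the pathway; orange diamonds are the 7 probe sets of ACO4, ACO6, ETR5, EIL3 and PTI4, blue points the other genes, and filled blue points passed at a limma adjusted p under 0.05, which is not marked for the orange points. In PSARK::IPT stress 0 blue points are filled, SAM1 is the blue synthesis point at -1.25 between stressed genotypes, and PTI4 is the orange point at 1.04 in the difference of the stress effects. The vertical scatter within a role has no meaning.

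A second list held 11 probe sets of 10 genes cloned from tomato as ethylene-responsive. In WT stress 2 of the 11 rose and 0 fell, ER66 (0.57, SE 0.11, limma adjusted p = 0.00293) and ER5 (0.54, SE 0.16, adjusted p = 0.0434), the latter related to late embryogenesis abundant proteins. Between stressed genotypes the same genes were lower in PSARK::IPT, ER66 by -0.59 (SE 0.11, adjusted p = 0.000983) and ER5 by -0.55 (SE 0.16, adjusted p = 0.0291). Limma passed 0 of 11 in PSARK::IPT stress, with 0 at an unadjusted p under 0.05, 0 between watered genotypes, with 1, and 0 in the difference of the stress effects, with 2. Over all probe sets 11.3% passed in WT stress and 16.7% between stressed genotypes. The shares were 1.36% in PSARK::IPT stress, 13.8% between watered genotypes and 1.9% in the difference of the stress effects. ER66 lay below the array median on all arrays, at 3.11 ± 0.09 (SD, n = 3) in stressed WT against 2.52 to 2.54 in the other group means. ER5 had group means of 2.74 to 3.30 and lay above the median on 1 stressed WT array. Of the 11 probe sets, only those of ER43, ER49 and ER68 lay above the median on every array. The others did so on 1 array or none, so most of this list read near the low end of the scale. E8 was also 1 of the 3 fruit probe sets. Without stressed WT replicate 2, ER66 passed in both comparisons (0.58 and -0.61) and ER5 did not (0.36 and -0.37). When single arrays were left out, the WT stress call of ER5 was made only without stressed WT replicate 1. Between stressed genotypes it did not pass without stressed WT replicate 3 or any 1 of the stressed PSARK::IPT replicates. ER24 passed between watered genotypes without stressed WT replicate 2 or 3, and ER5 in the difference of the stress effects without stressed WT replicate 1.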

How the data were processed

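Each of 12 leaf RNA samples was read on 1 Affymetrix array designed for tomato, per the labels. The authors deposited log2 values from RMA, per the submitters' processing notes, a method that corrects background, normalizes across arrays and summarises each probe set. Its version and options are not stated in the labels. Values between 1.28 and 13.84 showed the log2 scale.

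The 108 control probe sets were left out of the tests and 10101 were kept, of which 909 have 1 gene symbol in the platform annotation, 0 have several and the others none. The package limma 3.58.1 (R 4.3.3) fitted a mean per group to all 12 arrays, followed by eBayes, with 8 residual degrees of freedom. Tests are two-sided, with Benjamini-Hochberg adjustment over all probe sets of a comparison, and intervals are 95% intervals of the moderated t distribution. The steps were tested on simulated data with independent noise, which held no shared labelling difference and no array standing apart. Precision is limited by the number of arrays.

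The members and lists were chosen with earlier results of these data known. The list was defined by symbol in 4 roles (S-adenosylmethionine synthetases, ACS, ACO; ETR; CTR, EIN, EIL; ERF, PTI, JERF), with ER and E8 clones apart. Named genes are the members, the other listed genes that passed in a comparison, and per member the 3 genes, LOC symbols aside, most like its brightest probe set by Pearson correlation. ACO5, EIL1, CTR1, CTR3, ACS8, ER24, ER43, ER49, ER68, E8 and PTI1 fall outside that rule and were named after their values were seen. The poly-A difference is the mean of the 3' minus that of the 5' probe sets of the dap, lys, phe and thr controls. Their mean level is taken over all probe sets of these controls. Alternatives were median-centring, quantile normalization, a filter on dim probe sets, the replicate number as a block, only the arrays compared, the poly-A covariate, a trended robust moderation and leaving out each array.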

Additional observations from a re-analysis of the deposited data

Results flagged for a closer look

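PTI4 was flagged because the difference between its water effects in the 2 genotypes met the adjusted threshold of the limma fit to all 12 arrays. Stress went with a log2 difference of -0.62 in WT and 0.42 in PSARK::IPT leaves, a difference of 1.04 between them (SE 0.23). PTI4 may have been chosen by these same values, so this is a description and no test result. The threshold was met under 9 of 18 alternatives, and not with the replicate number as a block (1.04, SE 0.24) or with the poly-A covariate (0.96, SE 0.32). Leaving out single arrays gave 0.92 to 1.21, and the threshold was met in 5 of these 12 fits. The groups held 3 arrays each, so no single array was tested for standing apart within its group.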

How the results depend on the processing

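The ACO4 difference between stressed genotypes passed under all 19 alternatives tried (log2 0.49 to 0.99, adjusted p 0.00385 to 0.0359). The bright ACO6 probe set passed there under 13 of 19. It did not pass with only the arrays compared (0.69, adjusted p = 0.0512), with the poly-A covariate (0.25, adjusted p = 0.453), without stressed WT replicate 2 or without any 1 of the stressed PSARK::IPT replicates, and leaving out single arrays gave 0.43 to 0.92. The middle ACO6 probe set passed under 2 of 19, when dim probe sets were left out (0.41, adjusted p = 0.0419) and without watered WT replicate 3, and gave 0.35 to 0.51 without single arrays. ETR5 in PSARK::IPT stress was 0.00 with the poly-A covariate, just below 0 before rounding, and -0.03 to 0.39 without single arrays, and passed under no alternative. EIL3 there was 0.08 to 0.18 and also passed under none.

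Of the other ethylene genes, 2 passed in WT stress after median-centring, 7 when dim probe sets were left out, 0 with the poly-A covariate, and 1 to 4 without single arrays, against 4. With that covariate 33 of all 10101 probe sets passed in WT stress, against 1142. Without single arrays 0 to 1 passed in PSARK::IPT stress and 0 to 1 in the difference of the stress effects, against 0 in each. Of the ethylene-responsive clones in WT stress, 1 passed after median-centring, 1 after quantile normalization, 1 with only the arrays compared, 0 when dim probe sets were left out, 0 with the poly-A covariate and 1 to 2 without single arrays, against 2. Between watered genotypes 1 clone, ER24, passed with the poly-A covariate and 0 to 1 without single arrays, against 0. Between stressed genotypes 1 passed when dim probe sets were left out, 1 with only the arrays compared, 1 with the poly-A covariate and 1 to 2 without single arrays, against 2. In the difference of the stress effects 0 to 1 clones passed without single arrays, against 0. The causes were not tested.

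Same-numbered replicates of different groups did not deviate together (r -0.19 to 0.07 over 18 pairs), so the numbers give no pairing. With the replicate number as a block 1 clone, ER66, passed in WT stress in place of 2. The other ethylene genes that passed there were then CTR3, EIL1, ERF4, JERF1 and JERF3, without SAM1, and JERF3 no longer passed between stressed genotypes.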
